A study of Mus musculus with 4 samples.

Results

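Passage of a cell from the G1 phase into DNA replication is set by a small group of proteins, and 10 genes that encode them were described here in 4 RNA-seq libraries. They comprised 5 inhibitors of cyclin-dependent kinases (CDKs), namely Cdkn1a, Cdkn1b, Cdkn2a, Cdkn2c and Cdkn2d, the 3 D-type cyclin genes Ccnd1, Ccnd2 and Ccnd3, and the 2 kinase genes Cdk4 and Cdk6. They were taken by gene name from the 52636 genes of the deposited count table. The names were put together with earlier results of these data known. The cells were mouse CD4 T cells of strain C57BL/6, isolated as naive cells from spleen and kept for 3 days in medium that favours T follicular helper (Tfh) cells, the subset of T cells that supports antibody responses. The medium of all 4 cultures contained 10 ng/ml of IL-6, 10 ng/ml of IL-21, and blocking antibodies, 10 µg/ml against IFN-γ, 10 µg/ml against IL-4 and 20 µg/ml against TGF-β. The 2 groups were labelled E4BP4-cKO, a conditional knockout of the transcription factor E4BP4 encoded by Nfil3, and wild-type, with 2 libraries each. For the Cre driver, the deleted part of Nfil3 and the age of the mice, the sources used here give nothing. They do not tie the 2 libraries of a group to different mice, though counts of Xist, given at the end, set these libraries apart. P-values measure only the spread between these libraries.

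D-type cyclins are made in response to growth signals and bind CDK4 or CDK6. The active pair phosphorylates the retinoblastoma protein and its relatives, which releases E2F factors and lets the genes of DNA replication be transcribed. INK4 proteins (among the members, the products of Cdkn2a, Cdkn2c and Cdkn2d) bind CDK4 and CDK6 and keep the cyclin off, whereas the Cip/Kip proteins p21 (Cdkn1a) and p27 (Cdkn1b) inhibit CDK2 complexes and also bind cyclin D complexes. Cdkn2b also encodes an INK4 protein but is not a member, so the INK4 shares and ratios below leave it out. In T cells, stimulation through the antigen receptor induces D-type cyclins and lowers p27 protein, much of this by protein turnover that RNA counts do not see.

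Totals ran from 19057077 to 26579592 counts per library, and 1 count was worth between 0.0385 and 0.0546 CPM (counts scaled to library size, here with TMM factors). Counts of Nfil3 itself were 4649 and 3965 under the E4BP4-cKO label and 290 and 377 under the wild-type label, thus higher under the knockout label. The deleted part of Nfil3 is not given, so counts over the whole gene cannot show whether the labels are right. Groups are therefore named by label, and a direction given below is a difference between labelled groups only. T cell markers were present in every library, with 9 of 9 detected and summed levels from 3770 to 4200 CPM. The Tfh markers Bcl6, Cxcr5, Pdcd1, Icos and Il21 summed to between 553 and 591 CPM, but they moved in different directions. Icos was higher under the E4BP4-cKO label, at 302 and 416 against 218 and 203 CPM. Bcl6, Pdcd1 and Il21 had both E4BP4-cKO libraries below both wild-type libraries, and Cxcr5 overlapped. Summed markers of other cell types differed between the groups. The 8 mast cell and basophil markers summed to 1910 and 1440 CPM under the E4BP4-cKO label and to 494 and 103 CPM under the wild-type label, and the 8 myeloid markers to 290 and 204 against 50.2 and 17.7 CPM. The 8 B cell markers summed to 108 and 47.9 against 389 and 398 CPM. Most of these sums came from Ighm, at 43.4 and 23.3 against 242 and 243 CPM, and Igkc, at 19.2 and 8.24 against 99.6 and 106 CPM. Ebf1, at 28 and 9.17 against 10.7 and 23 CPM, overlapped. The remaining B cell markers were scarcer, with both E4BP4-cKO libraries below both wild-type libraries. No marker of these 3 lists was at 0 in any library. Of the natural killer cell markers, Ncr1 had 0 counts in all 4, and Klrb1c had 2 and 2 counts against 1 and 2. The CD8 gene Cd8a stood at 9.84 and 4.53 against 4.34 and 4.16 CPM, and Cd8b1 at 3.11 and 2.95 against 2.83 and 3.30 CPM. The part of these cells in the results below was not tested, and in bulk RNA fewer cells of a type and less RNA per cell cannot be told apart.

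The members that passed the test were Cdkn2c and Cdk4, so their promoters are shown, beside the window of Cdkn2a that starts the p19Arf transcript. The windows run from 250 bases before to 50 bases after the annotated start on the strand of the gene, from RefSeq on GRCm38.p6, the build that mm10 also names. Cdkn2c has a pair of windows, and the downstream start is shown because it holds the E-box. Capitals mark the E-box CACGTG in Cdk4 and Cdkn2c and the E2F word TTTCCCGC in Cdkn2a.
Cdk4, chr10:127063285-127063584, plus strand: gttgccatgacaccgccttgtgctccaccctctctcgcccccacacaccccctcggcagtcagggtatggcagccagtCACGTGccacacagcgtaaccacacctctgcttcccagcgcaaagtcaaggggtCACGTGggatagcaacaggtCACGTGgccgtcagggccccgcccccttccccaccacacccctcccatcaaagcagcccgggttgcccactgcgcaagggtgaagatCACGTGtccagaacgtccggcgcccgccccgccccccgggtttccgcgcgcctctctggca
Cdkn2c, chr4:109665323-109665622, minus strand: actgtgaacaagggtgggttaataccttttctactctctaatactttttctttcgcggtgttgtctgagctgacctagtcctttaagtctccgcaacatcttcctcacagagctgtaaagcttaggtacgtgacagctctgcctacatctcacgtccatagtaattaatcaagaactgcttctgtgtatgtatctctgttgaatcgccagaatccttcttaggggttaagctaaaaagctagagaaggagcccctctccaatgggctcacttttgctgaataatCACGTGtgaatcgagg
Cdkn2a, chr4:89294570-89294869, minus strand: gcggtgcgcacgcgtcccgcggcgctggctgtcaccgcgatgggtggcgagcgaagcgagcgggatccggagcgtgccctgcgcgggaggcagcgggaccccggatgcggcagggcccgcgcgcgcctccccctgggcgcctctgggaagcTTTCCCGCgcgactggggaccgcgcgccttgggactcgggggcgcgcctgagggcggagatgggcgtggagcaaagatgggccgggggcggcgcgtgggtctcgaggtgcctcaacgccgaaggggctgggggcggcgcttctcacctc

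RefSeq windows were matched for 8 of the 10 members, 12 windows in all. The D-box words TTACGTAA and TTATGTAA, to which E4BP4 binds, were searched on both strands and occurred in 0 of the 12 windows, against 1.06% of the 32851 promoter windows of the table. The E2F words TTTGGCGC, TTTCGCGC, TTTCCCGC and TTTGCCGC were found in 1 of 12, the p19Arf window shown above, at 99 to 92 bases before the start, against 2.26% of all windows. The E-box, a palindrome that Myc and Max bind, was searched after the sequences had been seen. It occurred in the windows of Cdk4, Cdk6 and Cdkn2c, against 7.15% of all windows. Cdk4 held 4 copies, beginning 172, 118, 98 and 11 bases before the start, and 0.0244% of all windows hold 4 or more. Matches of the E2F words and of the E-box lay in different windows. A match describes letters in a window and is not evidence of binding, and the level of Myc was 341 and 219 CPM under the E4BP4-cKO label and 303 and 357 CPM in the others.

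The comparison asked which of these genes differ in RNA level between the groups. With edgeR's quasi-likelihood test on the counts of all 15503 genes that passed the filter on low counts, and p-values adjusted by the Benjamini-Hochberg method, 2 of the 10 members, Cdkn2c and Cdk4, were lower under the E4BP4-cKO label and 0 were higher at an adjusted p under 0.05. All 10 passed that filter. Over all genes tested, 6.53% were called lower and 7.68% higher, and scaling to total library size turned 1191 higher and 1013 lower calls into 1033 and 1636. At an unadjusted p under 0.05, 3 members were lower and 1 higher. DESeq2 likewise called 3 lower and 1 higher, and limma-voom called 2 lower and 0 higher. The groups did not overlap for 5 members, of which Cdkn2c, Ccnd3, Cdk4 and Cdk6 were lower and Cdkn1b higher, where 33.6% and 34.6% of all genes tested had groups apart in these directions. The median log2 fold change of the members (E4BP4-cKO over wild-type) was -0.27, beside 0.02 for all genes tested.

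**Figure D1:**
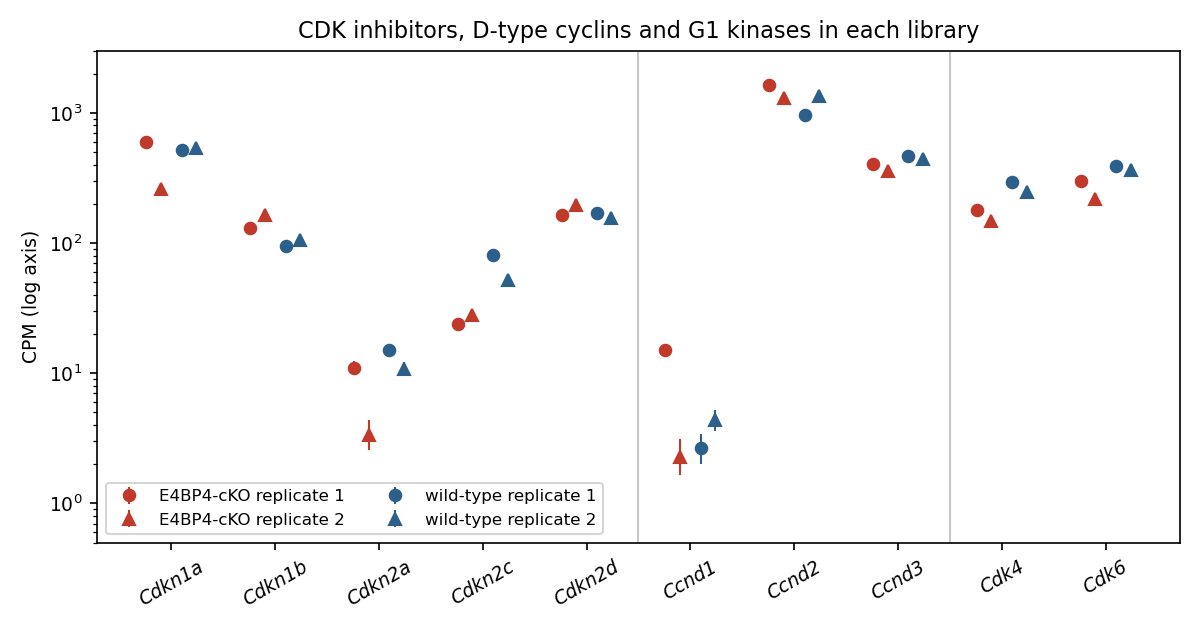
Level of each member in each library in CPM on a log axis, with 95% exact Poisson intervals on the counts, which cover counting error only. Red marks libraries labelled E4BP4-cKO and blue those labelled wild-type, and circles and triangles are replicates 1 and 2. Cdkn2c and Cdk4 stood lower in both red libraries, and Cdkn1a, Cdkn2a and Ccnd1 were far apart between the 2 red libraries.

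Among the INK4 inhibitors, Cdkn2c, which encodes p18, stood at 23.7 and 27.9 CPM under the E4BP4-cKO label and at 80.8 and 52.3 CPM under the wild-type label. Both E4BP4-cKO libraries lay below both wild-type libraries, and the wild-type libraries were the further apart of the 2 pairs. The log2 fold change was -1.37 (SE 0.23, edgeR adjusted p = 0.0301), so that the level was 2.58 times higher under the wild-type label. Its share of the length-scaled INK4 reads was 7.23% and 7.57% against 19.8% and 15.3%. The gene (ENSMUSG00000028551) lies on chromosome 4 between 109660876 and 109667189 in mm10, minus strand, with 3 merged exons. In mice, loss of p18 is known to leave T cells that divide more readily after stimulation. The call was lost when either library labelled E4BP4-cKO was left out, with adjusted p = 0.0574 without replicate 1 and 0.0770 without replicate 2, at log2 fold changes of -1.25 and -1.47. The summed B cell markers were lower in the same libraries, as given above, and their part in this difference was not tested.

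Cdkn2d, which encodes p19Ink4d, was the most abundant INK4 gene in every library. It stood at 163.8 and 195 CPM under the E4BP4-cKO label and at 171 and 155 CPM in the others. The groups overlapped, and the log2 fold change of 0.14 (SE 0.13, edgeR adjusted p = 0.506) did not pass. Cdkn2d (ENSMUSG00000096472) lies on chromosome 9 between 21288410 and 21291407, minus strand. Within each library the level per length of Cdkn2d was 11.8 and 11.9 times that of Cdkn2c under the E4BP4-cKO label and 3.61 and 5.07 times under the wild-type label. Both ratios of one group thus lay above both of the other, which does not depend on depth or scaling, and with 2 libraries a side an exact permutation test of either ratio gives 0.33 at the least, two-sided.

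Cdkn2a makes 2 proteins from different first exons and reading frames, p16Ink4a, an INK4 inhibitor, and p19Arf, which stabilises p53. The deposited counts are 1 value per gene, so the 2 transcripts cannot be told apart here. Its counts were 284 and 62 under the E4BP4-cKO label and 328 and 275 under the wild-type label, or 10.9, 3.38, 15 and 10.8 CPM. The gene (ENSMUSG00000044303) lies on chromosome 4 between 89274471 and 89294653, minus strand. Replicate 2 labelled E4BP4-cKO was the low library, and the other 3 lay close together. With all libraries the log2 fold change was -0.84 (SE 0.54, edgeR adjusted p = 0.320). Without E4BP4-cKO replicate 1, the library near the wild-type level, it was -1.93 and called (adjusted p = 0.0405), and without replicate 2 it was -0.22.

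Of the Cip/Kip genes, Cdkn1b, which encodes p27, a brake that holds resting lymphocytes out of the cycle, stood at 129.6 and 163 CPM under the E4BP4-cKO label and at 95.7 and 105.8 CPM under the wild-type label. Both E4BP4-cKO libraries were above both wild-type libraries. The log2 fold change of 0.54 (SE 0.15) did not pass (edgeR adjusted p = 0.0637), nor did it with limma-voom (adjusted p = 0.0646). It passed with DESeq2 (log2 fold change 0.53, adjusted p = 0.0181). Cdkn1b was called in 4 of the 12 alternative settings given further below. Leaving out 1 library at a time gave log2 fold changes from 0.38 to 0.69. Cdkn1b (ENSMUSG00000003031) lies on chromosome 6 between 134920401 and 134925513, plus strand.

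Cdkn1a, which encodes p21 and is a transcriptional target of p53, stood at 602 and 260.4 CPM under the E4BP4-cKO label and at 519 and 540.4 CPM under the wild-type label. The 2 wild-type libraries lay close together, with replicate 2 at 1.04 times replicate 1, whereas E4BP4-cKO replicate 1 was 2.31 times replicate 2, with replicate 1 above and replicate 2 below the wild-type range. Only 3.91% of the 13432 genes with a mean of at least 1 CPM had E4BP4-cKO libraries at least as far apart. The log2 fold change over all libraries was -0.30 (SE 0.38, edgeR adjusted p = 0.619). It was -1.03 and called without E4BP4-cKO replicate 1 (adjusted p = 0.0298) and changed sign to 0.20 without replicate 2. The direction at Cdkn1a thus depended on which library labelled E4BP4-cKO was kept. Cdkn1a (ENSMUSG00000023067; chromosome 17 from 29090979 to 29100722, plus strand) was the larger part of the length-scaled Cip/Kip reads in every library, 90.5% and 76.6% under the E4BP4-cKO label and 91.7% and 91.3% under the wild-type label.

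**Figure D2:**
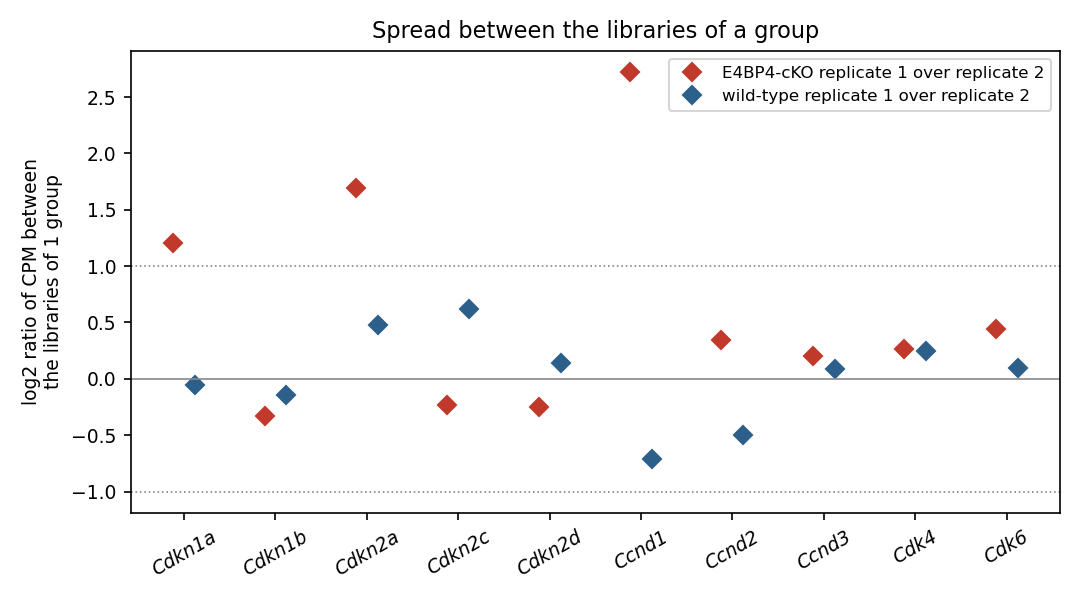
Log2 ratio of CPM between replicate 1 and replicate 2 within each group, for each member. Dotted lines mark a ratio of 2 in either direction. Cdkn1a, Cdkn2a and Ccnd1 exceeded it under the E4BP4-cKO label, at ratios of 2.31, 3.23 and 6.61, and 0 members exceeded it under the wild-type label. Of the 13432 genes with a mean of at least 1 CPM, 5.85% exceeded it under the E4BP4-cKO label and 5.4% under the wild-type label, so the 2 pairs were alike over all these genes.

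Ccnd2, which encodes the D-type cyclin best known from lymphocytes, was by far the most abundant cyclin of the 3. It stood at 1632 and 1286 CPM under the E4BP4-cKO label and at 959.9 and 1353 CPM under the wild-type label. The groups overlapped, because wild-type replicate 2 lay above E4BP4-cKO replicate 2, and the log2 fold change was 0.34 (SE 0.22, edgeR adjusted p = 0.329). Ccnd3, the other cyclin prominent in T cells and needed for the expansion of thymocytes in mice, stood at 408 and 356 CPM against 468 and 439.5 CPM. Its groups did not overlap, but the log2 fold change of -0.25 (SE 0.13) did not pass (edgeR adjusted p = 0.239). Ccnd2 (ENSMUSG00000000184) lies on chromosome 6 between 127125162 and 127152193, minus strand, and Ccnd3 (ENSMUSG00000034165) on chromosome 17 between 47505051 and 47599691, plus strand. Per length, Ccnd2 was 3.73 and 3.37 times as abundant as Ccnd3 under the E4BP4-cKO label and 1.91 and 2.87 times under the wild-type label. Ccnd2 therefore made up 77.7% and 76.9% of length-scaled D-type cyclin reads in the one group and 65.4% and 73.8% in the other, and Ccnd3 20.8% and 22.8% against 34.2% and 25.7%.

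Ccnd1, the D-type cyclin of many non-lymphoid cells, was scarce. Its counts were 394 and 42 under the E4BP4-cKO label and 58 and 111 under the wild-type label, or 15.2 CPM (95% exact Poisson interval 13.7 to 16.7), 2.29 CPM (1.65 to 3.10), 2.65 CPM (2.01 to 3.43) and 4.36 CPM (3.58 to 5.25). E4BP4-cKO replicate 1 stood alone, at 6.61 times replicate 2, and only 0.581% of genes with a mean of at least 1 CPM were as far apart between these 2 libraries. The log2 fold change was 1.32 (SE 0.84, edgeR adjusted p = 0.310), and it changed sign to -0.62 without that library. Ccnd1 (ENSMUSG00000070348) lies on chromosome 7 between 144929931 and 144939925, minus strand. Of its exon bases, 23.4% are also covered on the opposite strand by the gene listed as Oraov1 (LTO1 in the annotation). No source used here gives the strand setting of the counting, so reads there cannot be assigned to either gene. Oraov1 stood at 37.1 and 30.6 CPM against 21.6 and 25.5 CPM, closer together in the E4BP4-cKO libraries than Ccnd1 was. Between the same 2 libraries, replicate 1 over replicate 2, ratios of the 8 myeloid markers ran from 0.668 for Cd68 to 2.39 for Cd14, and those of the 8 mast cell and basophil markers from 0.875 for Ms4a2 to 3.04 for Tpsb2. The part of such cells in the level of Ccnd1 was not tested.

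**Figure D3:**
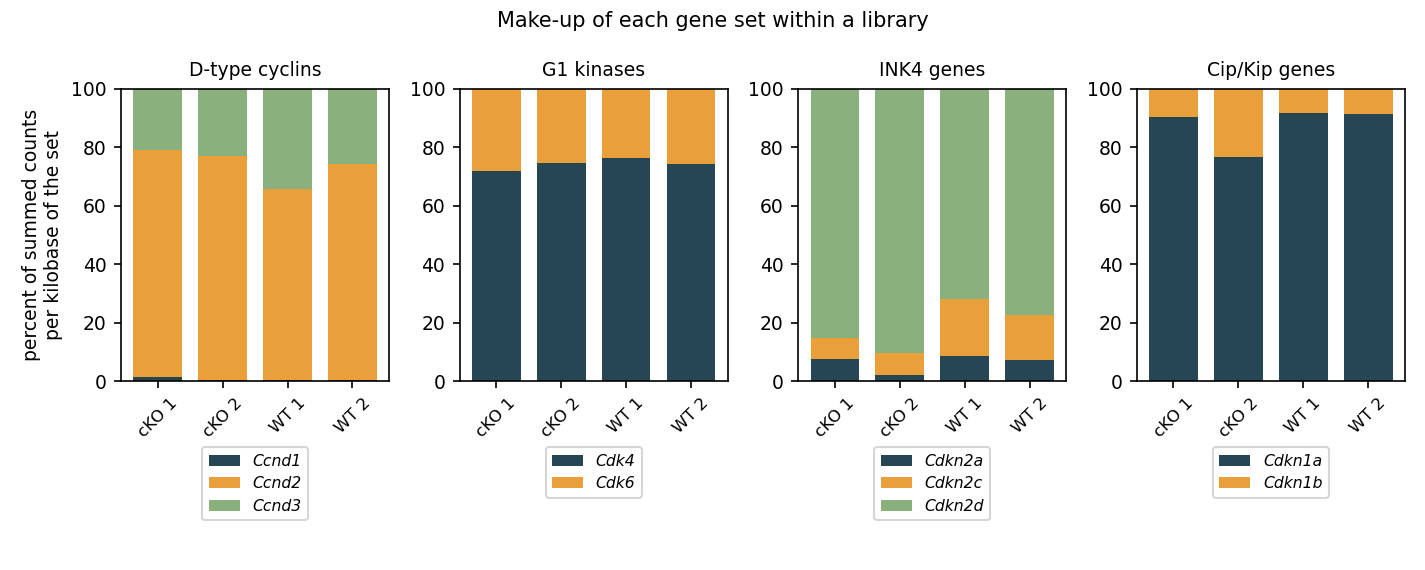
Share of each gene in the summed counts per kilobase of its set, in percent, for D-type cyclins, G1 kinases, INK4 genes and Cip/Kip genes. Sets hold members only, so the INK4 set is without Cdkn2b. Each bar is 1 library (cKO for E4BP4-cKO, WT for wild-type). Cdkn2c took 7.23% and 7.57% of the INK4 bar under the E4BP4-cKO label and 19.8% and 15.3% in the others, while Cdk4 took between 72.0% and 76.4% of the kinase bar in all 4.

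Both kinase genes had lower values under the E4BP4-cKO label, and Cdk4 passed the test. Cdk4 stood at 178 and 148 CPM under the E4BP4-cKO label and at 295 and 247 CPM under the wild-type label. Both E4BP4-cKO libraries were below both wild-type libraries, and the log2 fold change was -0.74 (SE 0.15, edgeR adjusted p = 0.0391), a level 1.66 times higher in wild-type. The call was lost when E4BP4-cKO replicate 2 was left out (log2 fold change of -0.59 at an adjusted p of 0.114) and when wild-type replicate 1 was (-0.61 at an adjusted p of 0.138). Cdk4 (ENSMUSG00000006728) lies on chromosome 10 between 127063534 and 127067920, plus strand, and 19.7% of its exon bases are also covered by Tspan31 on the opposite strand. Tspan31 stood at 74.9 and 68.1 CPM against 69.1 and 69.3 CPM, a log2 fold change of 0.05 (SE 0.10), so the neighbour that shares these bases was not lower with Cdk4.

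Cdk6, the kinase that acts beside CDK4 in blood cells, stood at 297 and 218 CPM under the E4BP4-cKO label and at 391.7 and 366 CPM under the wild-type label. The groups did not overlap, and the log2 fold change was -0.56 (SE 0.18, edgeR adjusted p = 0.0886). Cdk6 (ENSMUSG00000040274) lies on chromosome 5 between 3341485 and 3531008, plus strand. The difference passed with DESeq2 (-0.56, adjusted p = 0.0207) but not with limma-voom (-0.58, adjusted p = 0.0751). Cdk6 was called in 3 of the 12 alternative settings given further below. Leaving out 1 library at a time gave log2 fold changes from -0.80 to -0.33. The level per length of Cdk4 was 2.57 and 2.92 times that of Cdk6 under the E4BP4-cKO label and 3.24 and 2.91 times in the others, ratios that overlapped. The D-type cyclins together stood at 2.94 and 2.91 times the summed level per length of the kinases under the E4BP4-cKO label and at 1.31 and 1.90 times under the wild-type label. For the INK4 genes this ratio was 1.61 and 2.24 against 1.28 and 1.25. Both ratios were thus higher in each library labelled E4BP4-cKO than in either labelled wild-type. That of the Cip/Kip genes, at 3.94 and 2.50 against 2.14 and 2.60, overlapped. Cdk4 and Cdk6, the divisor of these ratios, had lower values under the E4BP4-cKO label, so a higher ratio does not show more cyclin or INK4 RNA. Summed CPM of the D-type cyclins, at 2060 and 1640 against 1430 and 1800, overlapped.

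**Figure D4:**
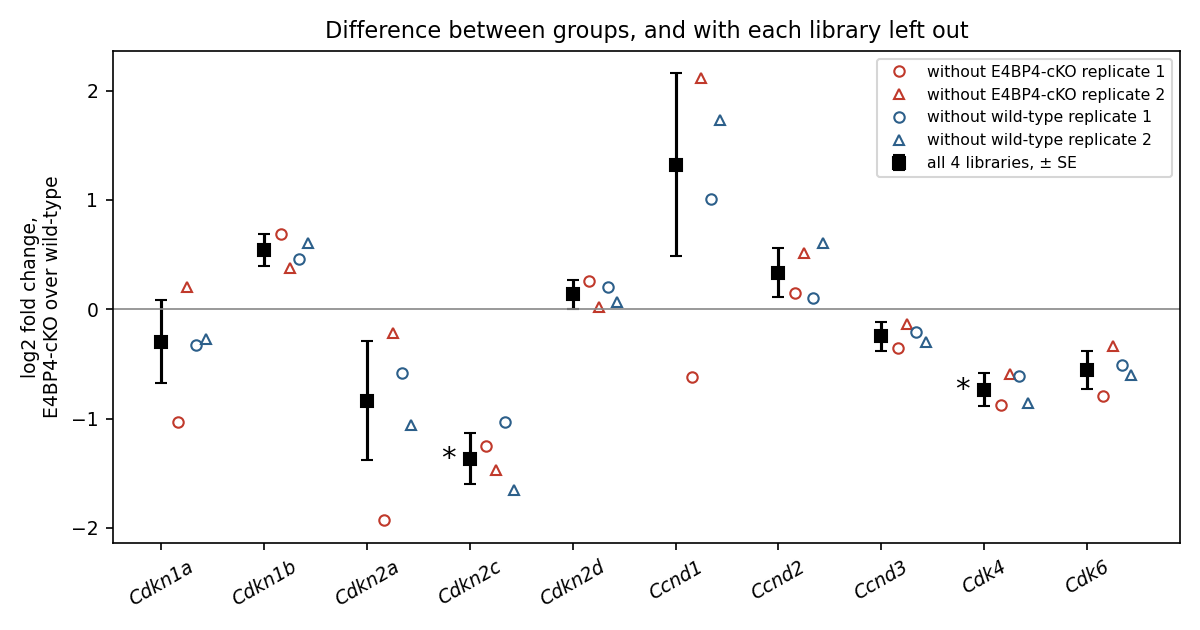
Log2 fold change of each member, E4BP4-cKO over wild-type, from edgeR with all 4 libraries (black squares, ± SE) and with each library left out in turn (open symbols). Asterisks mark an adjusted p under 0.05 with all libraries. Cdkn2c and Cdk4 stayed below 0 in each of these fits, whereas Cdkn1a and Ccnd1 crossed 0 when 1 library labelled E4BP4-cKO was left out.

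Scaled to total counts and to the deposited gene lengths (RPKM), the members covered a wide range of levels. Under the wild-type label Cdkn1a was highest at 245 ± 11.5 RPKM (mean ± SD, n = 2), followed by Ccnd2 at 127 ± 32.7, Cdkn2d at 107 ± 5.29, Cdk4 at 85.7 ± 9.05 and Ccnd3 at 53.2 ± 1.37 RPKM. Then came Cdk6 at 27.9 ± 0.810, Cdkn2c at 25.4 ± 7.24, Cdkn1b at 22.8 ± 2.03, Cdkn2a at 11.3 ± 2.40 and Ccnd1 at 0.768 ± 0.278 RPKM. Ccnd2 and Cdkn2d did not differ beyond their spread, nor did Cdkn2c from Cdk6 or Cdkn1b. Under the E4BP4-cKO label the order of the first 5 was the same, from Cdkn1a at 189 ± 108 RPKM and Ccnd2 at 151 ± 27.1 to Cdk4 at 48.6 ± 6.86 and Ccnd3 at 42.2 ± 4.63 RPKM. There Cdkn1b, at 31.2 ± 4.68 RPKM, stood above Cdk6, at 17.9 ± 4.08, and Cdkn2c, at 9.31 ± 0.948 RPKM. Cdkn1a overlapped with both Ccnd2 and Cdkn2d in that group, as did Cdk4 with Ccnd3 and Cdkn2c with Cdkn2a. The length used for Cdkn1a, 2223 bases, is shorter than its 3553 merged exon bases in GENCODE M21, and the other 9 members have the same length in both. With the longer length Cdkn1a would stand below Ccnd2 under the E4BP4-cKO label, so its first place there rests on the length used. The length-scaled shares and ratios that include Cdkn1a use the shorter length too.

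Other genes of the pathway were described from lists chosen with earlier results of these data known. The counts below stand beside shares of 6.53% lower and 7.68% higher over all genes tested with edgeR. Of the 14 G1/S partners, 5 were lower and 1 higher under the E4BP4-cKO label, with a median log2 fold change of -0.45. The lower genes were E2f1 (-0.72, SE 0.14) and E2f2 (-0.84, SE 0.14), which encode activating E2F factors, Tfdp2 (-0.70, SE 0.12), whose product is a partner of E2F, the phosphatase gene Cdc25a (-0.65, SE 0.10), which activates CDK2, and Rbl1 (-0.47, SE 0.11), which encodes p107. Rbl2, which encodes p130, the pocket protein of resting cells, was higher, at 133.8 and 164 CPM against 75.8 and 95.1 CPM (log2 fold change 0.80, SE 0.17, edgeR adjusted p = 0.0391). Rb1 itself stood at 66.9 and 83.4 against 77.9 and 74.0 CPM. With E4BP4-cKO replicate 2 or wild-type replicate 1 left out, 0 of the 14 were called in either direction, and with wild-type replicate 2 left out 3 were lower.

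In the list of S, G2 and M phase, edgeR called 29 of 30 lower and 0 higher (30 lower and 0 higher at an unadjusted p under 0.05, and with DESeq2 and limma-voom), with a median log2 fold change of -1.02. Kif20a (-1.28, SE 0.17), a kinesin of cell division, Uhrf1 (-1.16, SE 0.16), Ccna2 (-1.20, SE 0.17) and Cenpf (-0.99, SE 0.14) had the lowest p. The gene that did not pass was Pcna, at 272 and 249 against 375 and 351 CPM. Log2 fold changes in the list ran from -1.45 for Cdc20 to -0.48 for Pcna, and all 30 genes had both E4BP4-cKO libraries below both wild-type libraries. The count of lower genes was 0 when E4BP4-cKO replicate 2 was left out and 13 when wild-type replicate 1 was, at medians of -1.01 and -0.81.

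In the list of turnover factors of p27 and the D-type cyclins, 1 of 10 was lower and 0 higher with edgeR (3 and 1 at an unadjusted p under 0.05, 1 and 1 with DESeq2, 0 and 1 with limma-voom). The lower gene was Cks1b, the cofactor with which the ubiquitin ligase subunit Skp2 recognises p27, at 45.4 and 36.8 against 82.1 and 61.2 CPM (log2 fold change -0.80, SE 0.19, edgeR adjusted p = 0.0479). That call was lost without either library labelled E4BP4-cKO and without wild-type replicate 1. Of the 6 genes of CDK activation and assembly, 0 were called either way (1 lower at an unadjusted p under 0.05 and with DESeq2, 0 with limma-voom). Of the 3 other CDK inhibitor genes, Cdkn1c did not pass the filter and Cdkn2b and Cdkn3 were not called. Cdkn2b, the neighbour of Cdkn2a that encodes the INK4 protein p15, stood at 7.23 and 3.49 against 2.01 and 2.59 CPM. Its groups did not overlap, in the direction opposite to Cdkn2c, and the log2 fold change was 1.22 (SE 0.43, edgeR adjusted p = 0.106).

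Of 14 other p53 target genes, 2 were lower (14.3%) and 1 higher (7.14%), beside 6.53% and 7.68% of all genes tested. Their median log2 fold change was -0.31. The lower genes were Bbc3 (-0.90, SE 0.17), a cell death gene, and Phlda3 (-0.62, SE 0.14), and the higher gene was Btg2 (0.64, SE 0.14), an antiproliferative gene. The wide gap between the E4BP4-cKO libraries at Cdkn1a was not seen in this list. There the ratio of replicate 1 to replicate 2 was 1.09 for Mdm2, 1.03 for Ccng1 and at most 1.45, for Sesn2. Whether p53 had a part in the gap at Cdkn1a was not tested. With E4BP4-cKO replicate 2 or wild-type replicate 1 left out, 0 of these 14 were called, with wild-type replicate 2 left out 1 was lower and 0 higher, and scaled to total library size 3 were lower and 0 higher. Of 11 upstream transcription regulators, 3 were lower and 0 higher with edgeR (5 and 1 at an unadjusted p under 0.05, 4 and 0 with DESeq2, 3 and 0 with limma-voom). These were Klf2 (-2.21, SE 0.36), a factor of resting T cells, Ezh2 (-1.30, SE 0.22), the methyltransferase that is known to repress Cdkn2a, and Smad3 (-1.07, SE 0.11), which carries TGF-β signals. With E4BP4-cKO replicate 2 left out 1 of the 11 was lower, and scaled to total library size 5 were. Of the FoxO genes, whose products can activate Cdkn1b, Foxo1 stood at 104 and 128 against 88.8 and 114 CPM and Foxo3 at 152 and 135 against 144 and 135 CPM, with groups that overlapped. Foxo4 stood at 42.8 and 52.5 against 34.4 and 37.8 CPM, with groups apart and a log2 fold change of 0.40 (SE 0.14) that did not pass (edgeR adjusted p = 0.115).

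**Figure D5:**
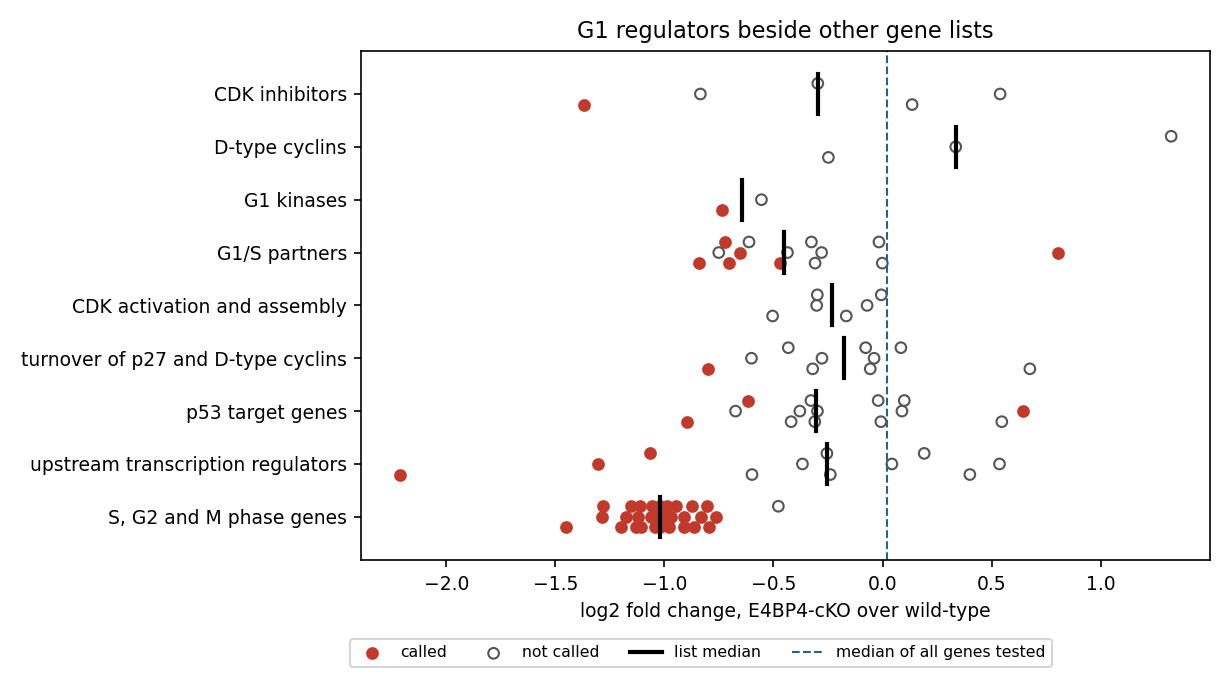
Log2 fold change, E4BP4-cKO over wild-type, of each tested gene in the member lists and the other lists of the pathway. Filled points were called by edgeR, bars are list medians and the dashed line is the median of all genes tested. The 30 genes of S, G2 and M phase centre on -1.02, while the G1 regulators spread from -1.37 for Cdkn2c to 1.32 for Ccnd1.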

How the data were processed

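Per the labels' protocols, RNA was extracted with TRIzol and fragmented mRNA was copied with random primers. No source used here gives the strand setting, the annotation release or the treatment of multi-mapping reads. The submitters' processing notes name CASAVA, HISAT2, featureCounts and mm10, without versions. The deposited values are raw gene counts in whole numbers, which the authors had not normalised. The deposited gene lengths (another deposited column, in bases) equalled the merged exons of GENCODE M21 for 94.3% of 52403 shared IDs, and RPKM used them with total counts.

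Groups came from the labelled genotype and replicate numbers from the titles. Genes were kept with filterByExpr (15503 of 28039 with a count), scaled with TMM factors and tested with edgeR 4.0.16 (glmQLFit and glmQLFTest, no covariate) in R 4.3.3. P-values were two-sided and adjusted (Benjamini-Hochberg) across the tested genes, with calls at 0.05. SE is the absolute log2 fold change divided by the square root of F. DESeq2 1.42.0, limma-voom (limma 3.58.1), other scalings and filters, a replicate block and leaving out each library were alternatives. Libraries of a group differed by more than sampling noise (chi-square per degree of freedom 23.5 and 29.9). On simulated counts for this comparison (15164 genes, 200 changed) edgeR called 52% of 2-fold and 91% of 4-fold changes. Of 163 calls 20 were false, a share above the 0.05 aimed at. The changed genes were drawn only from well-counted genes and were far fewer than the calls in these data (1191 higher and 1013 lower). These rates need not hold for the data. Poisson intervals cover counting error alone. The members and lists were chosen with earlier results of these data known. Named were all 10 members, Nfil3, called genes of each list (at most 4 of the lowest p, or all where 5 or fewer), and others for context, chosen after their values were seen. Near-identical copies (at least 90% identity over 200 bases) other than overlapping genes had at most 2 counts per library where the count table lists them, and 2 copies of Cdk6 were not measured. Protein sequences were not used here.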

Additional observations from a re-analysis of the deposited data

How the results depend on the processing

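All 10 members passed the filter in each of the 12 alternatives to edgeR with all libraries, TMM factors and filterByExpr. Cdkn2c and Cdk4 were each called in 10 of the 12 and below 0 in all 12. With no filter beyond a count in any library, 2 members were higher and 4 lower, and 2680 of all genes were higher and 2237 lower. With DESeq2, 1 member was higher, and 1834 of all genes were higher and 1676 lower. Scaling to total library size gave 1636 lower genes. Leaving out 1 library at a time, which in a group of 2 takes the lone library to vary like the others, gave 246 to 954 higher and 74 to 806 lower genes, with 0 to 1 member higher and 0 to 4 lower. The median log2 fold change of the members ran from -0.71 without E4BP4-cKO replicate 1 to -0.0573 without replicate 2. For the genes of S, G2 and M phase, 0 to 29 were lower, with medians from -1.22 to -0.81. In these fits Cdkn1a ran from -1.03 to 0.20 and Ccnd1 from -0.62 to 2.12. Beyond the library left out, the cause of these shifts was not tested. Without length scaling the shares themselves shifted, that of Cdk4 from 73.2% to 38.9% on average under the E4BP4-cKO label, while the differences between the groups (E4BP4-cKO minus wild-type) in the shares of Ccnd2, Cdk4 and Cdkn2d moved by less than the spread between libraries.

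The replicate numbers gave no pairing. The deviations of same-numbered libraries correlated at 0.0578 across genes, and the labels do not say that a number marks a shared mouse or day. With the replicate number as a block, 1375 genes were higher and 1064 lower. 1 member was then higher, Cdkn1b (log2 fold change 0.53, edgeR adjusted p = 0.0441), and 2 were lower. By the counts of Xist given at the end, each replicate number joined a library with abundant Xist and one almost without it. The block therefore did not separate libraries by Xist, and no fit took Xist into account. Each fit without 1 library left a group with only 1 kind of library by Xist. Depth was lowest for Ccnd1 and Cdkn2a, with as few as 42 and 62 counts in a library.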

Other observations

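Xist, the RNA of the inactive X chromosome, had 1 and 21517 counts in E4BP4-cKO replicates 1 and 2 and 28571 and 17 in wild-type replicates 1 and 2. Each group thus held 1 library with abundant Xist and 1 almost without it. Such counts point to mice of different sex, and so to different mice, within each group. In both groups Ccnd2 was higher in the library without abundant Xist, at 1632 against 1286 CPM and 1353 against 959.9 CPM. Ccnd1 was likewise higher there in both groups, at 15.2 against 2.29 CPM and 4.36 against 2.65 CPM. Cdkn2c was lower there in both groups, at 23.7 against 27.9 CPM and 52.3 against 80.8 CPM. Cdkn1b was lower there under the E4BP4-cKO label, at 129.6 against 163 CPM, and higher under the wild-type label, at 105.8 against 95.7 CPM. Of the other members, Cdkn1a was higher and Cdkn2d lower there in both groups. Cdkn2a, Ccnd3, Cdk4 and Cdk6 were higher there under the E4BP4-cKO label and lower there under the wild-type label. The members thus shared no single direction by Xist. With 1 library of each kind per group this was not tested.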
